A study of Mus musculus with 12 samples.

Results

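A set of 10 genes of the amino acid stress response, Atf4, Atf5, Ddit3, Trib3, Chac1, Asns, Sesn2, Phgdh, Psat1 and Psph, was followed through mouse kidney tissue, progenitor cells grown from it and organoids grown from those cells. The 10 members were taken as a list of ATF4 pathway and serine synthesis genes, out of 18193 genes named by a probe set with 1 gene symbol. All 10 were among the 13031 genes bright enough to be tested. RNA was measured on 12 Affymetrix mouse arrays in 6 groups of 2: medulla tissue and cortex tissue, progenitor cells derived from medulla and from cortex, and organoids derived from medulla and from cortex. The progenitor cells were cultured on fibroblast feeder cells and the organoids were formed in 3D Matrigel, a basement membrane gel, so each culture stage also carries its own culture conditions. For the mice, no strain, sex or age is given in the sources used here. The labels call the 2 arrays of a group biological replicates and do not say whether equal numbers share an animal or a culture. The p-values set each difference against the spread between arrays of a group, shared over all 6 groups. Whether that spread is one between animals or between cultures is not given.

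ATF4 is a transcription factor made from an mRNA that is translated best when the initiation factor eIF2 is phosphorylated, which happens when amino acids run short, when unfolded protein builds up in the endoplasmic reticulum or under several other stresses. It binds with a C/EBP partner to composite elements and raises transcription of genes for amino acid synthesis, amino acid uptake and tRNA charging, and of regulators such as Ddit3 and Trib3. Serine is made from a glycolysis intermediate by PHGDH, PSAT1 and PSPH, and feeds glycine and the folate cycle. Kidney, and the proximal tubule in particular, is known as a site of serine synthesis in the body. An array reports mRNA, and ATF4 is controlled in large part by translation, so the values for Atf4 are mRNA levels.

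The core of the composite element, TGATGNAA, was looked for on both strands (TTNCATCA on the other) from 250 bases before to 50 bases after each annotated transcription start in RefSeq, build GRCm38.p6. Of the 12 promoters listed for the 10 genes, 1 each of Asns, Chac1 and Trib3 held the letters, so 3 of 10 genes did, beside 4.51% of all 27025 genes and 3.97% of all 32851 promoters. These 3 stretches are shown because they held a match, in genes that are target genes of the factor on the list. Each is written in the direction of transcription, with the matching letters in capitals.
Asns, chr6:7693210-7693309, minus strand: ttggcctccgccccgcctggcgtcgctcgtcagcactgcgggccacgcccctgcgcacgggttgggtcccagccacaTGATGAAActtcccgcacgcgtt
Chac1, chr2:119351003-119351102, plus strand: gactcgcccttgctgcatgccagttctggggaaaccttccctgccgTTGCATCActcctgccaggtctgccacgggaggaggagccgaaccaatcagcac
Trib3, chr2:152344028-152344057, minus strand: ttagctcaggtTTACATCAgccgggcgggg

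In Asns the match lay at positions -23 to -16 from the start and read on the gene's own strand. In Chac1 it lay at -193 to -186 and in Trib3 at +15 to +22, just inside the transcript, both on the opposite strand. A match describes letters in this window and not binding. The promoters of Atf4, Atf5, Ddit3, Sesn2, Phgdh, Psat1 and Psph held no match in this window.

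The arrays were scaled by the authors to the same mean signal, and values below are log2 signals of 1 probe set per gene unless another is named. The level of 1 probe set cannot be set against that of another, so levels are compared between arrays only. Differences are on the log2(signal + 15.16) scale, which understates changes of dim genes, and each is given with its standard error (SE) and an adjusted p from limma. Median differences between the 2 replicates of a group over all genes tested were 0.41 in medulla organoids and 0.13 to 0.23 in the other groups. Organoid arrays stood apart in their controls: the poly-A spike-ins had median log2 signals of 7.69 to 8.23 on tissue, 7.01 to 7.16 on progenitor and 1.15 to 2.30 on organoid arrays. For the Gapdh control, the 3' minus 5' value (the probe set at the 3' end minus that at the 5' end; a 3' excess can come with shortened RNA) was -0.23 to 0.18 on tissue, -0.41 to -0.30 on progenitor and 0.87 to 1.67 on organoid arrays. The actin control gave another order, at 0.94 to 1.63 on tissue, 0.16 to 0.19 on progenitor and -0.0015 to 0.15 on organoid arrays, with tissue highest and organoids lowest. Cell type markers moved with stage. Many genes did so: of all genes tested, 36.8% were higher and 35.9% lower in progenitors than in tissue. In organoids, 28.1% of all genes were higher and 44.3% lower than in progenitors, and 33.1% higher and 46.6% lower than in tissue. In progenitors against tissue, 19 of 19 proximal tubule, 10 of 11 loop and distal, 10 of 10 collecting duct, 11 of 11 endothelium and 7 of 8 immune markers were lower, and 1 immune marker was higher. In organoids against progenitors, loop and distal markers had 6 of 11 higher and 3 lower (median 3.42), collecting duct markers 5 of 10 higher and 2 lower, proximal tubule markers 9 of 19 higher and 5 lower, endothelium markers 0 of 11 higher and 4 lower, and immune markers 2 of 8 higher and 1 lower. Umod, a loop marker, was 6.05 ± 0.13 higher in organoids than in progenitors and fell by 3.98 ± 0.13 against tissue. Against tissue, organoids had 19 of 19 proximal tubule, 9 of 11 loop and distal and 8 of 10 collecting duct markers lower. Of endothelium markers, 11 of 11 were lower, and of immune markers, 6 of 8 were lower and 2 higher. The part of these cell types in the stage differences of the 10 genes was not tested. Between medulla and cortex tissue, 0 of 19 proximal tubule, 0 of 11 loop and distal and 0 of 10 collecting duct markers passed by limma, and 1, 0 and 3 did at an unadjusted threshold of 0.05. After adjustment, 0.33% of all genes were higher in medulla tissue and 0.00767% lower. With so few calls over all genes, these counts cannot show whether the regions differ in cell types. In bulk samples, fewer cells of a type and less RNA per cell cannot be told apart.

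In progenitor cells 9 of the 10 genes rose, by 1.94-fold (Psph) to 18.8-fold (Asns) over tissue, and Ddit3 was the exception. On the probe sets that stood for the genes, organoids had lower levels than progenitors of 6 of the 10, but 8 of 10 were still above tissue. Other probe sets of Atf4 and Psat1 read no fall from progenitors. For Trib3 and Phgdh, not every probe set placed organoids above tissue. Sesn2 rose again in organoids, and Psph dropped below its tissue level. By limma with adjustment over all 13031 genes, 9 of 10 genes were higher and 0 lower in progenitors than in tissue, where 36.8% of all genes tested were higher and 35.9% lower. In organoids against progenitors, 2 of 10 were higher and 6 lower, where 28.1% of all genes were higher and 44.3% lower. In organoids against tissue, 8 of 10 were higher and 1 lower, where 33.1% of all genes were higher and 46.6% lower. All 4 progenitor arrays lay above all 4 tissue arrays for 9 of 10 genes and below for 0, where 37.2% of all genes tested lay above and 35.8% below. The median log2 difference of the 10 genes was 2.56, -0.82 and 1.86 in these 3 comparisons, beside 0.03, -0.29 and -0.29 over all genes tested. The members were chosen with earlier results of these data known, so these counts and medians are a description and not independent support.

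**Figure D1:**
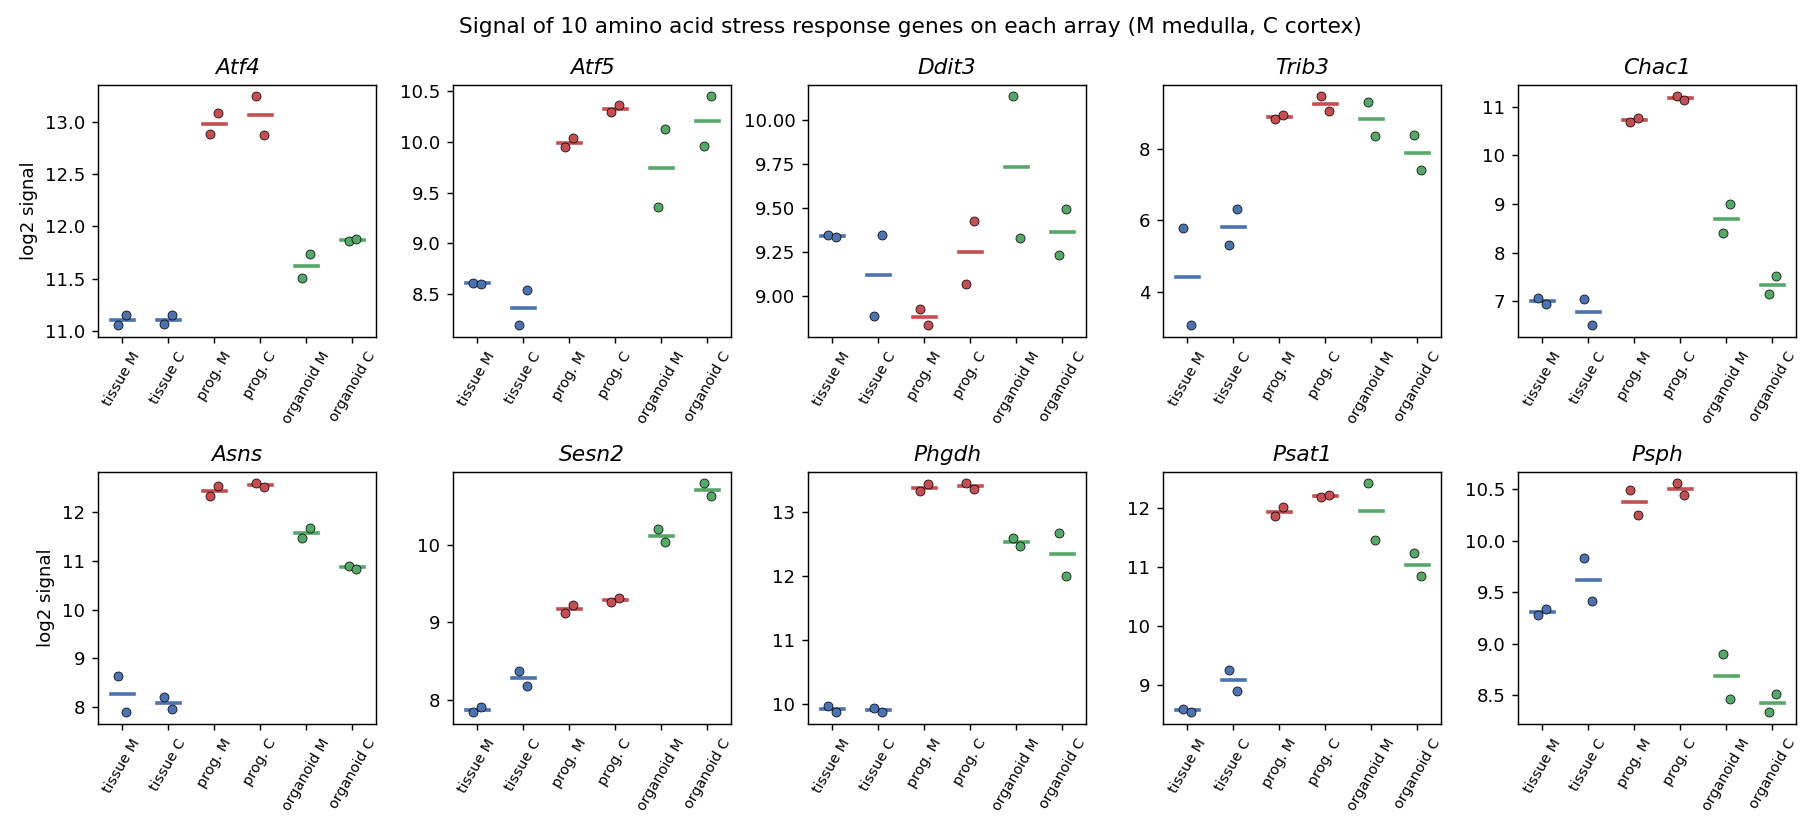
Log2 signal (vertical axes, a separate scale for each gene) of the 10 genes on each of 12 arrays, with medulla (M) left of cortex (C) at each stage, tissue, progenitor (prog.) and organoid. Points are arrays and bars the mean of 2; 9 genes lie higher on all 4 progenitor arrays than on any tissue array, as 37.2% of all genes tested do, and Ddit3 overlaps.

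Atf4 itself, the factor that gives the pathway its name, had log2 signals of 11.05 and 11.15 in medulla tissue, 11.06 and 11.15 in cortex tissue, 12.88 and 13.08 in medulla progenitors, 13.24 and 12.88 in cortex progenitors, 11.51 and 11.73 in medulla organoids, and 11.86 and 11.88 in cortex organoids. The 3 stages did not overlap: progenitors were highest, organoids in between and tissue lowest. Atf4 rose by 1.91 ± 0.10 in progenitors over tissue (adjusted p = 5.26e-09, limma). It fell by 1.27 ± 0.10 in organoids against progenitors (adjusted p = 3.09e-07), and was 0.64 ± 0.10 higher in organoids than in tissue (adjusted p = 9.00e-05). Its other bright probe set, 1438992_x_at, also rose in progenitors over tissue, by 1.62 ± 0.19, but differed by 0.10 ± 0.19 between organoids and progenitors (adjusted p = 0.644). Of the bright probe sets, only 1448135_at, which stood for the gene, read the fall in organoids. With the mean of all 3 Atf4 probe sets the organoid minus progenitor difference was -0.04 (adjusted p = 0.795, limma). That mean takes in 1439258_at, which was dim on every array and had mean log2 signals of 1.20 in progenitors and 4.30 in organoids.

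Atf5, a related factor that is also controlled by upstream reading frames in its mRNA, was at 8.61 and 8.60 in medulla tissue, 8.19 and 8.54 in cortex tissue, 9.95 and 10.04 in medulla progenitors, 10.29 and 10.36 in cortex progenitors, 9.35 and 10.13 in medulla organoids, and 9.96 and 10.45 in cortex organoids. Both culture stages lay above all tissue arrays, and they overlapped each other. The gene rose by 1.63 ± 0.17 in progenitors over tissue (adjusted p = 3.23e-06, limma) and by 1.45 ± 0.17 in organoids over tissue (adjusted p = 7.73e-06). Organoids and progenitors differed by -0.18 ± 0.17 (adjusted p = 0.356), with a 95% interval of -0.56 to 0.20. Without medulla organoid replicate 2, the organoid minus progenitor difference of Atf5 was -0.37 and passed (adjusted p = 0.0252).

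Ddit3 encodes CHOP, a C/EBP family factor linked to cell death under lasting stress. The probe set that stood for it read 9.34 and 9.34 in medulla tissue, 8.89 and 9.35 in cortex tissue, 8.93 and 8.83 in medulla progenitors, 9.07 and 9.43 in cortex progenitors, 10.13 and 9.33 in medulla organoids, and 9.23 and 9.49 in cortex organoids. All 3 stages overlapped, and the highest array was medulla organoid replicate 1. Progenitors and tissue differed by -0.16 ± 0.18 (adjusted p = 0.441, limma). Organoids were 0.47 ± 0.18 above progenitors (adjusted p = 0.0340) and differed from tissue by 0.31 ± 0.18 (adjusted p = 0.134).

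The second Ddit3 probe set, 1443897_at, gave another picture. It read 4.84 and 4.77 in medulla tissue, 5.41 and 2.46 in cortex tissue, 6.23 and 6.52 in medulla progenitors, 6.21 and 6.31 in cortex progenitors, 8.14 and 9.08 in medulla organoids, and 8.87 and 8.87 in cortex organoids. The stages did not overlap. This probe set rose by 1.30 ± 0.32 in progenitors over tissue (adjusted p = 0.00298, limma) and by 2.22 ± 0.32 in organoids over progenitors (adjusted p = 4.60e-05). With the mean of both probe sets the progenitor minus tissue difference of Ddit3 was 0.57 (adjusted p = 0.00327), of the opposite sign, and the organoid minus tissue difference was 1.92 (adjusted p = 1.85e-07). The call for organoids over progenitors on the brighter probe set was lost without progenitor cortex replicate 1, progenitor medulla replicate 1 or 2, organoid cortex replicate 2 or organoid medulla replicate 1 (adjusted p = 0.125, 0.0630, 0.0866, 0.109 and 0.103). Without organoid medulla replicate 2 the organoid minus tissue difference of Ddit3 passed at 0.51 (adjusted p = 0.00573).

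Trib3 encodes a pseudokinase that ATF4 and CHOP induce and that acts back on the pathway. Its log2 signals were 5.78 and 3.05 in medulla tissue, 5.30 and 6.32 in cortex tissue, 8.86 and 8.96 in medulla progenitors, 9.49 and 9.08 in cortex progenitors, 9.32 and 8.39 in medulla organoids, and 8.39 and 7.41 in cortex organoids. Tissue was lowest on every array, and medulla tissue replicate 2 was lowest of all. The signal of this probe set exceeded the median on only 9 arrays, so Trib3 was bright enough to be tested through the culture stages. Differences from tissue rest on dim tissue values, and their size is uncertain. Trib3 rose by 3.38 ± 0.36 in progenitors over tissue (adjusted p = 3.67e-06, limma) and by 2.69 ± 0.36 in organoids over tissue (adjusted p = 2.31e-05). Organoids and progenitors overlapped and differed by -0.69 ± 0.36 (adjusted p = 0.106). That difference passed in a fit of these groups alone (adjusted p = 0.0434), with the median signal as offset (-0.60, adjusted p = 0.0384) and without organoid medulla replicate 1 (-0.91, adjusted p = 0.0405).

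The other Trib3 probe set, 1426065_a_at, placed organoids at the tissue level. It read 6.21 and 5.97 in medulla tissue, 6.36 and 6.68 in cortex tissue, 9.16 and 9.15 in medulla progenitors, 9.60 and 9.56 in cortex progenitors, 6.60 and 6.97 in medulla organoids, and 6.33 and 6.28 in cortex organoids. On it, Trib3 rose by 2.84 ± 0.18 in progenitors over tissue (adjusted p = 3.11e-08, limma) and fell by 2.63 ± 0.18 in organoids against progenitors (adjusted p = 7.87e-08). Organoids and tissue differed by 0.20 ± 0.18 (adjusted p = 0.317). Both probe sets read the rise in progenitors, and they differed on the level in organoids. The rise in organoids over tissue passed only on the probe set that stood for Trib3, 1456225_x_at. Its x_at suffix marks probe sets whose probes may bind other transcripts too. With the mean of both Trib3 probe sets, the organoid minus progenitor difference was -1.66 (adjusted p = 3.85e-05, limma).

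Chac1 encodes an enzyme that breaks down glutathione and is a sensitive target of ATF4. Its signals were 7.07 and 6.95 in medulla tissue, 7.04 and 6.50 in cortex tissue, 10.68 and 10.77 in medulla progenitors, 11.21 and 11.14 in cortex progenitors, 8.40 and 9.00 in medulla organoids, and 7.14 and 7.52 in cortex organoids. The 4 progenitor arrays stood far above the others, and cortex organoid replicate 1, at 7.14, was just above the highest tissue array, at 7.07. Chac1 rose by 3.89 ± 0.18 in progenitors over tissue, which is 14.9-fold (adjusted p = 1.30e-09, limma). It fell by 2.85 ± 0.18 in organoids against progenitors (adjusted p = 3.76e-08), the largest fall among the 10 genes on the probe sets that stood for them. Organoids remained 1.04 ± 0.18 above tissue (adjusted p = 0.000152).

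Asns, asparagine synthetase, makes asparagine from aspartate and is a standard readout of the amino acid response. Its signals were 8.64 and 7.90 in medulla tissue, 8.22 and 7.97 in cortex tissue, 12.33 and 12.52 in medulla progenitors, 12.59 and 12.50 in cortex progenitors, 11.48 and 11.67 in medulla organoids, and 10.89 and 10.84 in cortex organoids. The 3 stages did not overlap. Asns rose by 4.23 ± 0.14 in progenitors over tissue (adjusted p = 1.05e-10, limma), fell by 1.26 ± 0.14 in organoids against progenitors (adjusted p = 6.41e-06), and stood 2.97 ± 0.14 above tissue in organoids (adjusted p = 1.97e-09). Its second probe set gave 4.92 ± 0.13, -1.17 ± 0.13 and 3.75 ± 0.13 for the same comparisons.

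Sesn2, sestrin 2, senses leucine and holds back the growth kinase complex mTORC1. Its signals were 7.84 and 7.90 in medulla tissue, 8.37 and 8.18 in cortex tissue, 9.12 and 9.21 in medulla progenitors, 9.26 and 9.31 in cortex progenitors, 10.19 and 10.04 in medulla organoids, and 10.79 and 10.62 in cortex organoids. The order of the stages was tissue, progenitor, organoid, with no overlap. Sesn2 rose by 1.11 ± 0.12 in progenitors over tissue (adjusted p = 2.92e-06, limma) and by a further 1.16 ± 0.12 in organoids over progenitors (adjusted p = 2.43e-06). The second probe set, 1451599_at, rose by 1.17 ± 0.22 in progenitors over tissue, and its organoid minus progenitor difference was 0.33 ± 0.22 (adjusted p = 0.195). Sesn2 is also a p53 target. Of 10 other p53 targets tested, 9 rose in progenitors against tissue and 1 fell, where 36.8% of all genes were higher and 35.9% lower. The 1 that fell was Sesn1, a paralog, by 2.25 ± 0.24 (adjusted p = 2.90e-06, limma). In organoids against progenitors, where Sesn2 rose, 0 of the 10 rose and 8 fell. There 28.1% of all genes were higher and 44.3% lower. The part of p53 in the Sesn2 values was not tested.

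Phgdh, the first enzyme of serine synthesis, is read by 4 probe sets. The one that stood for the gene gave 9.97 and 9.88 in medulla tissue, 9.94 and 9.87 in cortex tissue, 13.32 and 13.43 in medulla progenitors, 13.45 and 13.36 in cortex progenitors, 12.60 and 12.46 in medulla organoids, and 12.68 and 11.99 in cortex organoids. No stage overlapped another. Phgdh rose by 3.46 ± 0.13 in progenitors over tissue (adjusted p = 2.34e-10, limma), fell by 0.96 ± 0.13 in organoids against progenitors (adjusted p = 2.56e-05) and was 2.50 ± 0.13 higher in organoids than in tissue (adjusted p = 3.33e-09).

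The 4 Phgdh probe sets all rose in progenitors over tissue, by 2.38 to 4.59, and all fell in organoids against progenitors. They disagreed on where organoids stood against tissue. Probe set 1454714_x_at placed organoids 3.27 ± 0.12 above tissue (adjusted p = 2.35e-10, limma), and 1456584_x_at 0.42 ± 0.19 above (adjusted p = 0.0538). Probe set 1426658_x_at read 8.92 and 8.71 in medulla tissue, 9.30 and 8.84 in cortex tissue, 12.22 and 12.36 in medulla progenitors, 12.30 and 12.23 in cortex progenitors, 8.34 and 8.52 in medulla organoids, and 7.44 and 7.32 in cortex organoids. On it all organoid arrays lay below all tissue arrays, and Phgdh fell by 0.99 ± 0.13 in organoids against tissue (adjusted p = 1.29e-05). All 4 carry the x_at suffix, which marks probe sets whose probes may bind other transcripts too.

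Psat1, the second enzyme of the route, read 8.60 and 8.54 in medulla tissue, 9.26 and 8.90 in cortex tissue, 11.86 and 12.02 in medulla progenitors, 12.20 and 12.23 in cortex progenitors, 12.43 and 11.47 in medulla organoids, and 11.24 and 10.85 in cortex organoids. Tissue lay far below both culture stages, and organoids overlapped progenitors through medulla organoid replicate 1. Psat1 rose by 3.21 ± 0.18 in progenitors over tissue (adjusted p = 8.79e-09, limma) and by 2.63 ± 0.18 in organoids over tissue (adjusted p = 4.83e-08). Organoids were 0.58 ± 0.18 below progenitors (adjusted p = 0.0114). That last call was lost without organoid cortex replicate 2 (-0.49, adjusted p = 0.0568) and with the mean of both Psat1 probe sets (-0.17, adjusted p = 0.323). The second probe set, 1454607_s_at, gave 0.23 ± 0.15 for organoids minus progenitors (adjusted p = 0.188).

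Psph, which removes the phosphate in the last step, read 9.28 and 9.34 in medulla tissue, 9.84 and 9.41 in cortex tissue, 10.50 and 10.25 in medulla progenitors, 10.56 and 10.44 in cortex progenitors, 8.90 and 8.46 in medulla organoids, and 8.34 and 8.51 in cortex organoids. The order was progenitor, tissue, organoid, with no overlap. Psph rose by 0.96 ± 0.14 in progenitors over tissue (adjusted p = 5.77e-05, limma). It fell by 1.84 ± 0.14 in organoids against progenitors (adjusted p = 2.31e-07) and by 0.89 ± 0.14 in organoids against tissue (adjusted p = 9.42e-05). It was the only one of the 10 genes below tissue in organoids on the probe sets that stood for the genes.

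**Figure D2:**
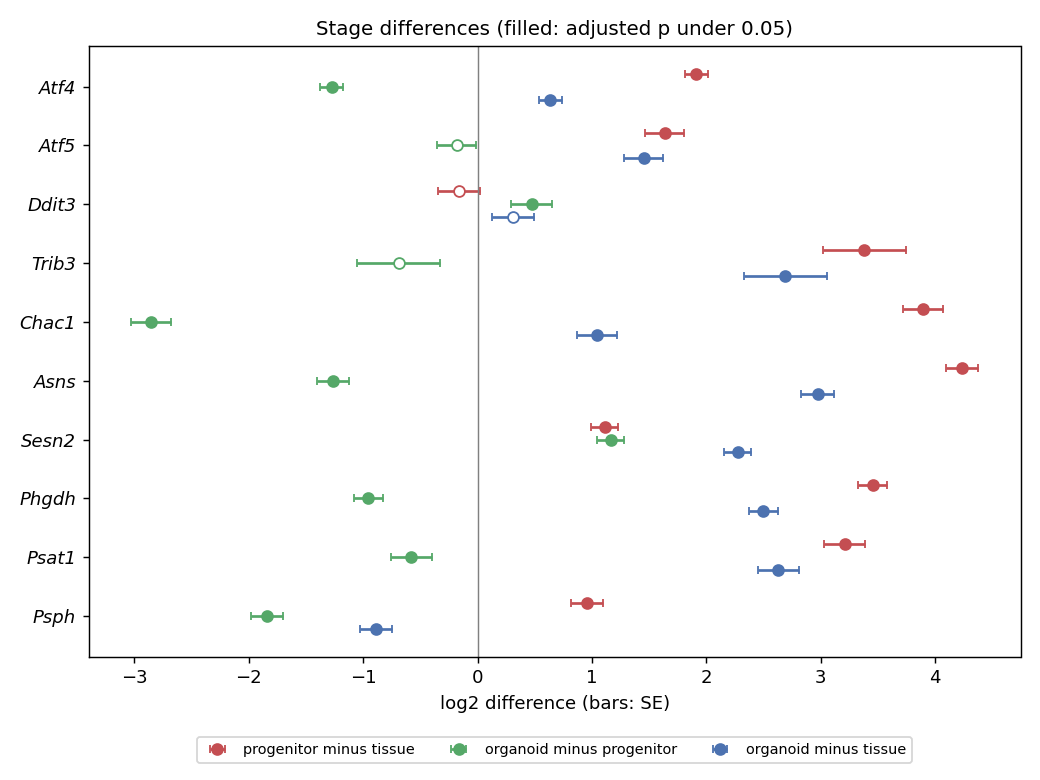
Log2 differences (horizontal axis; bars are SE, filled points passed the adjusted threshold) of the 10 genes for progenitor minus tissue, organoid minus progenitor and organoid minus tissue. There are 9 filled points right of 0 for progenitor minus tissue, and 6 lie left of 0 and 2 right of it for organoid minus progenitor.

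The 10 genes have 20 probe sets with 1 symbol, 19 of them bright enough to be tested; the third Atf4 probe set, 1439258_at, was dim at every stage. Of the 19, 18 were higher in progenitors than in tissue and 0 lower, where 38.8% of the 24193 probe sets tested were higher and 30.2% lower. In organoids against progenitors, 3 were higher and 11 lower, where 34.1% of all probe sets were higher and 37.6% lower. In organoids against tissue, 14 were higher and 2 lower, where 41.1% were higher and 38.3% lower. The probe sets of a gene share its RNA and are not replicates. Gapdh 3' minus 5' values were highest and those of actin lowest on organoid arrays, and their part in the disagreement between probe sets on organoids was not tested. A further 2 probe sets that name a member together with other genes were not used.

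**Figure D3:**
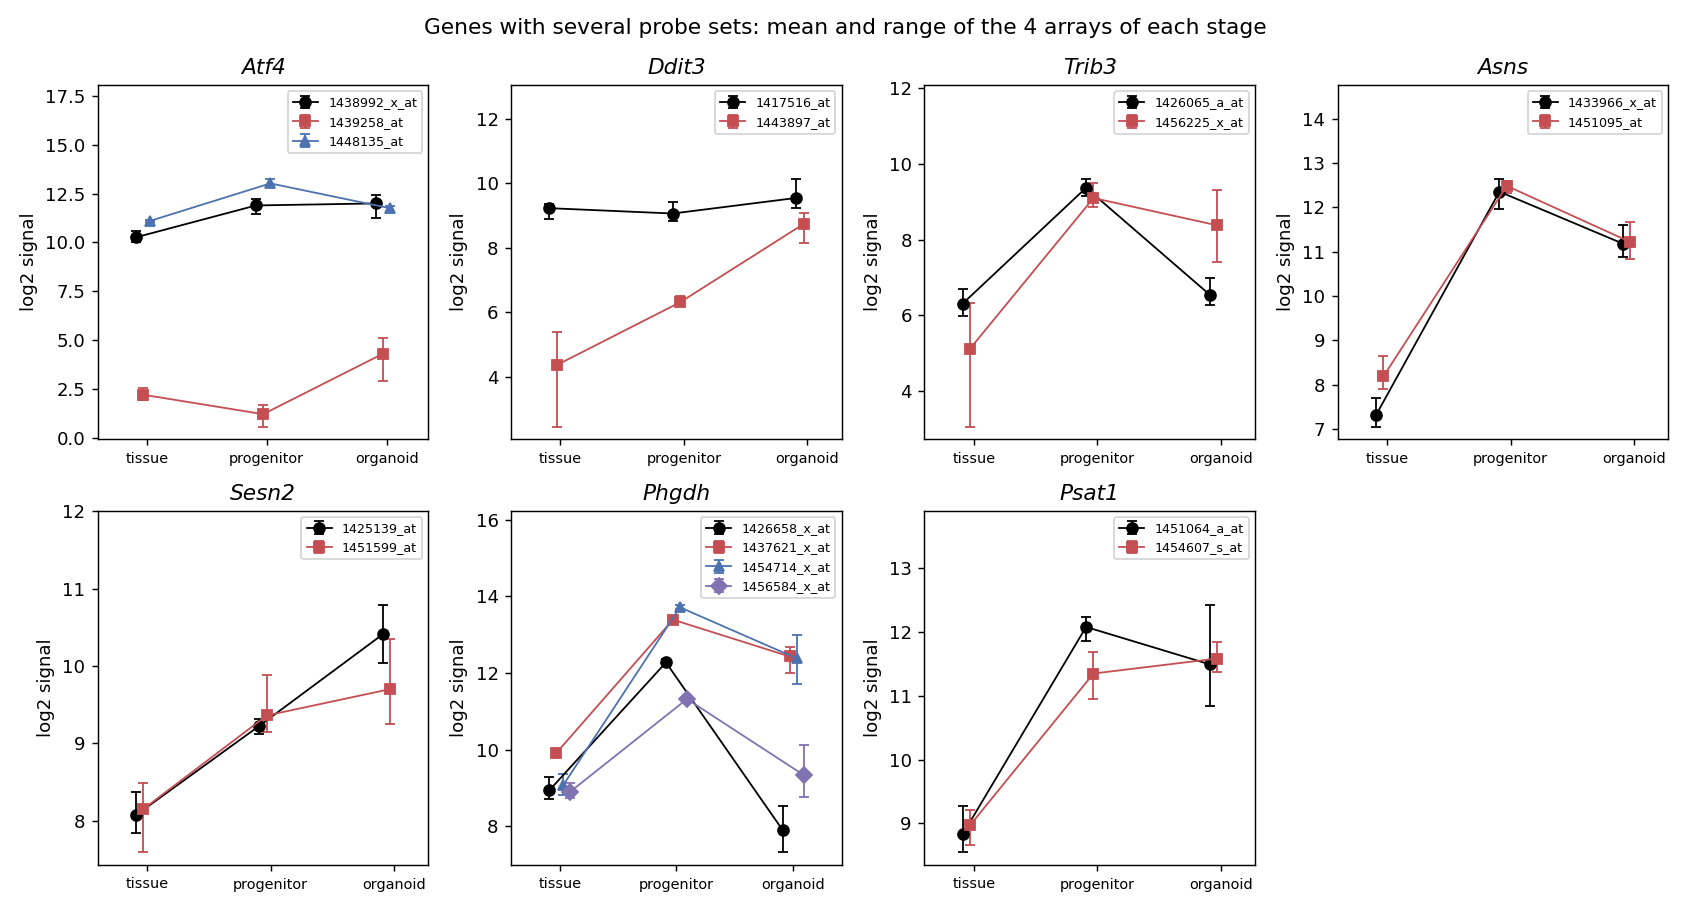
Mean log2 signal (points) and range of the 4 arrays (bars) of each probe set at each stage, for the 7 genes with several; each panel has its own vertical scale. The probe sets of Asns run together, while those of Phgdh and Trib3 part in organoids and those of Ddit3, at means of 9.23 and 4.37 in tissue, come closer there, at 9.55 and 8.74.

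The median gene was lower in organoids as well, and the size of these differences depends on scaling. Scaling every array to the same 75th percentile moved the median of all genes from -0.29 to -0.40 for organoid minus progenitor and from -0.29 to -0.51 for organoid minus tissue. Relative to the all-gene median in the authors' scaling, Chac1 stood at -2.57, Psph at -1.56, Atf4 at -0.99, Asns at -0.98, Phgdh at -0.67, Trib3 at -0.40, Psat1 at -0.29, Atf5 at 0.10, Ddit3 at 0.76 and Sesn2 at 1.45 for organoid minus progenitor. Under quantile normalization Phgdh stood at -0.37 and Psat1 at -0.18 on that scale. The Ddit3 rise in organoids over progenitors did not pass under quantile normalization (adjusted p = 0.118) or 75th percentile scaling (adjusted p = 0.126).

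Medulla and cortex were then compared within each stage. In tissue, 0 of 10 genes passed between medulla and cortex by limma and 1 did at an unadjusted threshold of 0.05, where 0.33% of all genes were higher and 0.00767% lower after adjustment. That gene was Sesn2, at -0.38 ± 0.16 (adjusted p = 0.521). In progenitors, 0 of 10 passed, and 0 at the unadjusted threshold, where 0.276% of all genes were higher and 0.0384% lower. Medulla minus cortex differences in progenitors lay between -0.45 (Chac1) and -0.03 (Phgdh) on the probe sets that stood for the genes (adjusted p = 0.999874 for all), and other probe sets of Sesn2, Ddit3 and Phgdh gave 0.30, 0.10 and 0.03.

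In organoids, Chac1, Asns and Psat1 were higher in those from medulla than in those from cortex and Sesn2 was lower, so 3 of 10 were higher and 1 lower, where 7.94% of all genes were higher and 10% lower. Chac1 read 8.40 and 9.00 in medulla organoids, against 7.14 and 7.52 in cortex organoids, a difference of 1.29 ± 0.25 (adjusted p = 0.00499, limma). Asns differed by 0.71 ± 0.20 (adjusted p = 0.0310), Psat1 by 0.90 ± 0.25 (adjusted p = 0.0298) and Sesn2 by -0.58 ± 0.16 (adjusted p = 0.0305). The 2 arrays of each side did not overlap for these 4 genes or for Atf4, which did not pass: 3 of 10 genes were higher and 2 lower in this way, where 24.2% of all genes tested were higher and 26% lower. Trib3 differed by 0.91 ± 0.51 (adjusted p = 0.251), Atf5 by -0.45 ± 0.24 (adjusted p = 0.232), Atf4 by -0.25 ± 0.14 (adjusted p = 0.257), Ddit3 by 0.36 ± 0.26 (adjusted p = 0.372), Phgdh by 0.19 ± 0.18 (adjusted p = 0.507) and Psph by 0.25 ± 0.20 (adjusted p = 0.430).

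These region calls depended on the shared spread: in a fit of the organoid arrays alone these 4 did not pass, with adjusted p = 0.163 for Chac1, 0.0949 for Asns, 0.201 for Psat1 and 0.179 for Sesn2. With all groups, Chac1 still passed when any single array was left out. Psat1 lost its call without organoid cortex replicate 1 or 2 or organoid medulla replicate 1 (adjusted p = 0.0588, 0.207 and 0.115; 0.43 in the last). Asns lost it without organoid cortex replicate 1 or 2, organoid medulla replicate 2 or progenitor cortex replicate 1 or 2 (adjusted p = 0.109, 0.146, 0.0621, 0.0539 and 0.0540). Sesn2 lost it without organoid cortex replicate 1 or 2 (adjusted p = 0.154 and 0.0732) and without any of the 4 progenitor arrays (0.0512 to 0.0596). Without organoid medulla replicate 2, Atf5 and Ddit3 passed at -0.83 and 0.75 (adjusted p = 0.0105 and 0.0215), and without organoid cortex replicate 1 Phgdh passed at 0.53 (adjusted p = 0.0415).

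Other probe sets bore on the same comparison. Of the 19, 5 were higher in medulla than in cortex organoids and 1 lower, where 6.4% of all probe sets were higher and 7.79% lower. Phgdh was higher in medulla organoids on 1454714_x_at, by 1.03 ± 0.17 (adjusted p = 0.00305, limma), and on 1426658_x_at, by 0.99 ± 0.18 (adjusted p = 0.00431). The second probe sets of Asns and Psat1 gave 0.51 ± 0.18 (adjusted p = 0.0798) and 0.05 ± 0.22 (adjusted p = 0.917). The second probe set of Sesn2 gave 0.63 ± 0.31, of the opposite sign (adjusted p = 0.208), and the mean of both gave 0.03 (adjusted p = 0.950).

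Fibroblast marker signal moved with region in the organoids. Summed over the 18 fibroblast and mesenchyme markers tested, the signal was 12624 and 12767 units in medulla organoids, against 2759 and 3240 in cortex organoids, and 14 of the 18 were higher in medulla organoids and 0 lower. The sum was 5781 to 11318 on tissue and 17368 to 23736 on progenitor arrays, where feeder cells were part of the culture. Of the 18 markers, 14 were higher and 3 lower in progenitors than in tissue. In organoids against progenitors, 1 was higher and 15 lower, with a median of -1.42. The part of fibroblasts and feeder cells in the values of the 10 genes was not tested. Gapdh 3' minus 5' values were 1.15 and 0.87 in medulla organoids, against 1.53 and 1.67 in cortex organoids. Those of actin were -0.0015 and 0.11 in medulla organoids, against 0.020 and 0.15 in cortex organoids, and overlapped. The part of either was not tested.

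**Figure D4:**
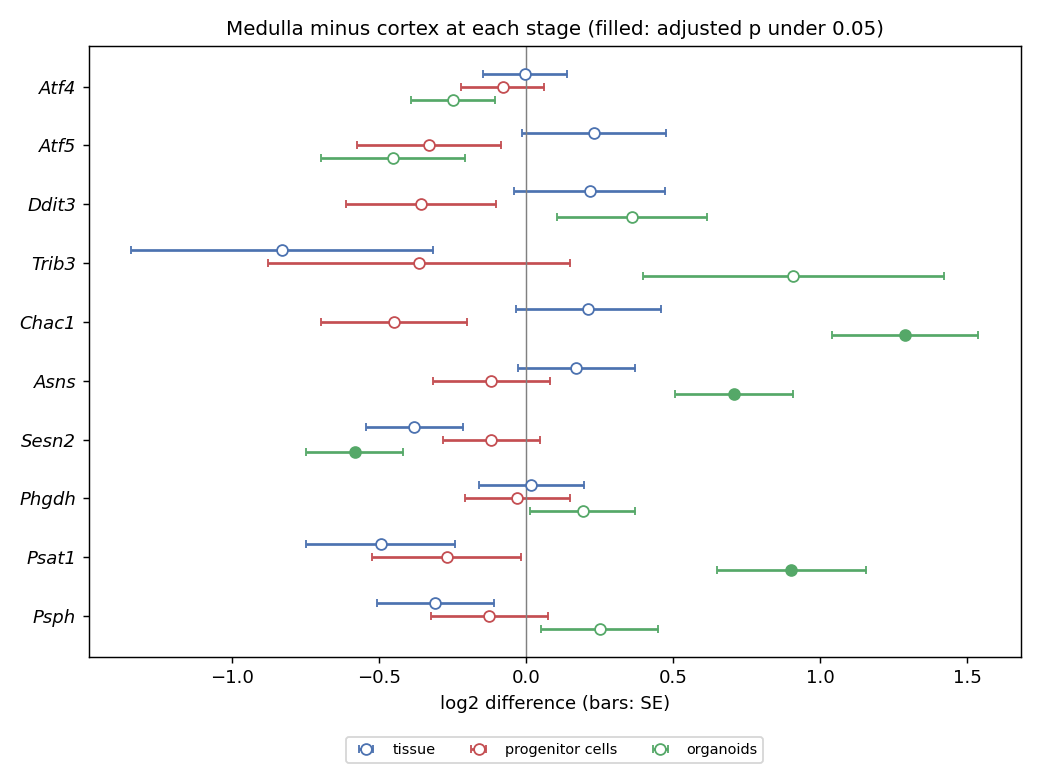
Medulla minus cortex log2 differences (horizontal axis; bars are SE, filled points passed the adjusted threshold) of the 10 genes in tissue, progenitor cells and organoids. Filled points are the organoid values of Chac1, Asns and Psat1, right of 0, and Sesn2, left of 0.

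Whether the stage changes depended on region was tested as a difference of differences. For progenitor minus tissue, 0 of 10 genes passed by limma and 0 at an unadjusted threshold of 0.05, where 0.161% of all genes were higher and 0.123% lower. For organoid minus progenitor, Chac1 passed at 1.74 ± 0.35 (adjusted p = 0.0216), 1 of 10 genes, where 1.63% of all genes were higher and 2.48% lower. Chac1 changed by -1.98 ± 0.25 in medulla cultures and by -3.72 ± 0.25 in cortex cultures. Psat1, at 0.00 ± 0.25 and -1.17 ± 0.25, gave a difference of 1.17 ± 0.36 (adjusted p = 0.0928), and Asns, at -0.85 ± 0.20 and -1.67 ± 0.20, gave 0.82 ± 0.28 (adjusted p = 0.127). Of the probe sets, 2 of 19 passed, Chac1 and Phgdh 1454714_x_at (1.08 ± 0.25, adjusted p = 0.0419), where 1.14% of all probe sets were higher and 1.55% lower.

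The Chac1 call was lost without progenitor cortex replicate 1 or 2, progenitor medulla replicate 1 or 2, or organoid cortex replicate 1 (adjusted p = 0.112, 0.0971, 0.0919, 0.0921 and 0.0712), with differences of 1.56 to 1.78. Without organoid medulla replicate 2, Psat1 passed at 1.65 (adjusted p = 0.00132) and Ddit3 at 1.11 (adjusted p = 0.0201). Without tissue medulla replicate 1 or 2, Asns passed (adjusted p = 0.0457 and 0.0449).

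Lists of related genes, also chosen with earlier results of these data known, were set beside the 10. Over all genes tested, 36.8% were higher and 35.9% lower in progenitors against tissue. In organoids, 28.1% were higher and 44.3% lower than in progenitors, and 33.1% higher and 46.6% lower than in tissue. Between medulla and cortex organoids, 7.94% were higher and 10% lower in medulla. Of 19 cytosolic aminoacyl-tRNA synthetases tested, the enzymes that charge tRNAs, 18 rose in progenitors over tissue and 0 fell, with a median of 1.32. The largest were Cars at 2.47 ± 0.15, Tars at 2.18 ± 0.12, Iars at 1.99 ± 0.11 and Vars at 1.63 ± 0.14. Against progenitors, 3 rose and 13 fell in organoids, with a median of -0.60. The largest were Vars at -3.10 ± 0.14, Kars at -2.53 ± 0.19, Yars at -1.73 ± 0.16 and Qars at 1.41 ± 0.10; with the mean of its probe sets Qars was at -0.40. In organoids against tissue, 15 were higher and 3 lower.

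Among 15 other ATF4 target genes tested, 11 rose and 4 fell in progenitors against tissue, with a median of 1.75. The largest changes were in Mthfd2, a mitochondrial folate enzyme, at 4.41 ± 0.15, Nupr1, a stress regulator, at 4.36 ± 0.15, Cth, which makes cysteine, at -3.87 ± 0.15, and Aldh18a1, of proline synthesis, at 3.80 ± 0.13. Cth was the exception in direction among these 4: its signals were 9.51 and 9.34 in medulla progenitors and 9.47 and 9.60 in cortex progenitors, against 13.27 and 13.34 in medulla tissue and 13.45 and 13.46 in cortex tissue. Organoids against progenitors had 5 that rose and 7 that fell, led by Stc2, a secreted glycoprotein, at 4.14 ± 0.25, Mthfd2 at -2.70 ± 0.15, Cebpg, which encodes a C/EBP partner of ATF4, at 1.92 ± 0.11, and the lipoprotein receptor Vldlr at 1.84 ± 0.10. In medulla against cortex organoids, Cth (0.89 ± 0.21), Pck2 (0.73 ± 0.16) and Vldlr (0.63 ± 0.15) were higher and 0 of 15 lower. Nupr1 was 2.35 ± 0.22 higher in medulla than in cortex tissue (adjusted p = 0.000524, limma).

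Of 9 amino acid transporters known as ATF4 targets, 5 rose and 2 fell in progenitors against tissue. The largest rises were Slc7a5, the light chain of a leucine exchanger, at 3.47 ± 0.12, the arginine carrier Slc7a1 at 3.08 ± 0.18, Slc7a11, the cystine carrier, at 1.94 ± 0.22 and Slc38a2 at 1.49 ± 0.17. Against progenitors, 5 rose and 2 fell in organoids, led by Slc7a11 at 3.34 ± 0.22, the serine and alanine carrier Slc1a4 at 3.12 ± 0.18, the glycine carrier Slc6a9 at 1.73 ± 0.13 and Slc7a5 at -1.59 ± 0.12. Slc1a4 read 11.24 and 11.05 in medulla organoids and 10.58 and 10.42 in cortex organoids, against 7.47 and 7.56 in medulla progenitors and 7.89 and 7.52 in cortex progenitors. The glutamine carrier Slc1a5 was lower in medulla than in cortex organoids, by -1.32 ± 0.18 (adjusted p = 0.000716, limma).

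Genes of folate one-carbon metabolism, glycine cleavage and serine use moved both ways. Of 12 folate one-carbon and glycine cleavage genes tested, 5 rose and 7 fell in progenitors against tissue. The glycine decarboxylase Gldc fell by 5.70 ± 0.36 and the folate dehydrogenase Aldh1l1 fell by 5.38 ± 0.17, while Mthfd2 rose by 4.41 ± 0.15 and Mthfd1l, of the same mitochondrial route, by 3.05 ± 0.17. In organoids against progenitors 2 rose and 7 fell, led by Mthfd2 at -2.70 ± 0.15, Mthfd1l at -1.89 ± 0.17, Aldh1l2 at -1.65 ± 0.25 and Dld at -1.25 ± 0.10. Of 6 serine consuming enzymes, 1 rose and 4 fell in progenitors against tissue: serine racemase Srr fell by 3.32 ± 0.19, Cbs of cysteine synthesis by 2.92 ± 0.38 and Ptdss2 by 0.86 ± 0.12, and Sptlc2 of sphingolipid synthesis rose by 1.23 ± 0.14. With the mean of its probe sets Sptlc2 was at -0.20. Against progenitors, 3 of these 6 rose and 2 fell in organoids, led by Cbs at 1.55 ± 0.38, Ptdss2 at -1.54 ± 0.12, Ptdss1 at 1.02 ± 0.11 and Sptlc1 at -0.76 ± 0.10; with the mean of its probe sets Ptdss2 was at 0.09.

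Genes upstream of ATF4 were mixed. Of 8 eIF2 kinase, phosphatase and regulator genes tested, 4 rose and 2 fell in progenitors against tissue. The largest change was in Ppp1r15a, the stress-induced phosphatase subunit, at 2.11 ± 0.18, which is also on the list of other ATF4 target genes. Next were the kinase genes Eif2ak2 at 2.01 ± 0.18, Eif2ak1 at -1.11 ± 0.13 and Eif2ak3 at 1.05 ± 0.11. In organoids against progenitors 3 rose and 3 fell, led by Eif2ak2 at 2.01 ± 0.18, Eif2ak1 at 1.80 ± 0.13, Impact at -1.63 ± 0.15 and Eif2ak3 at -1.56 ± 0.11; with the mean of their probe sets Impact was at 0.61 and Eif2ak3 at 0.58. Of 20 endoplasmic reticulum chaperone and unfolded protein response genes, 6 rose and 8 fell in progenitors against tissue, with a median of -0.12. These counts lay near the shares over all genes tested, 36.8% higher and 35.9% lower. Herpud1 fell by 3.12 ± 0.11, Dnajc3 by 1.67 ± 0.09 and Dnajb9 by 1.51 ± 0.13, and Sdf2l1 rose by 1.24 ± 0.20. Against progenitors, 8 rose and 7 fell in organoids, where 28.1% of all genes were higher and 44.3% lower. The changes were led by the chaperone genes Hyou1 at 2.32 ± 0.10 and Dnajb11 at 2.01 ± 0.10, Creld2 at 1.74 ± 0.12 and the sensor gene Ern1 at 1.57 ± 0.10.

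Of 10 p53 targets tested, 9 rose and 1 fell in progenitors against tissue, with a median of 3.13, led by Gtse1 at 5.27 ± 0.24, Plk2 at 4.87 ± 0.24, Cdkn1a at 4.70 ± 0.18 and Phlda3 at 4.16 ± 0.15. Of the same 10, 0 rose and 8 fell in organoids against progenitors, the largest being Plk2 at -2.67 ± 0.24 and Bbc3 at -2.35 ± 0.21. Of 16 cell cycle genes tested, 15 rose and 0 fell in progenitors against tissue, and 1 rose and 15 fell in organoids against progenitors; the part of proliferation in the values of the 10 genes was not tested. Of 5 paralogs of members, 1 rose and 3 fell in progenitors against tissue: Trib2 fell by 3.81 ± 0.23, Sesn1 by 2.25 ± 0.24 and Chac2 by 0.59 ± 0.12, and Trib1 rose by 0.76 ± 0.21. Several genes are on more than 1 list (Mthfd2, Shmt2, Aldh1l2, Ppp1r15a and Sesn1).

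**Figure D5:**
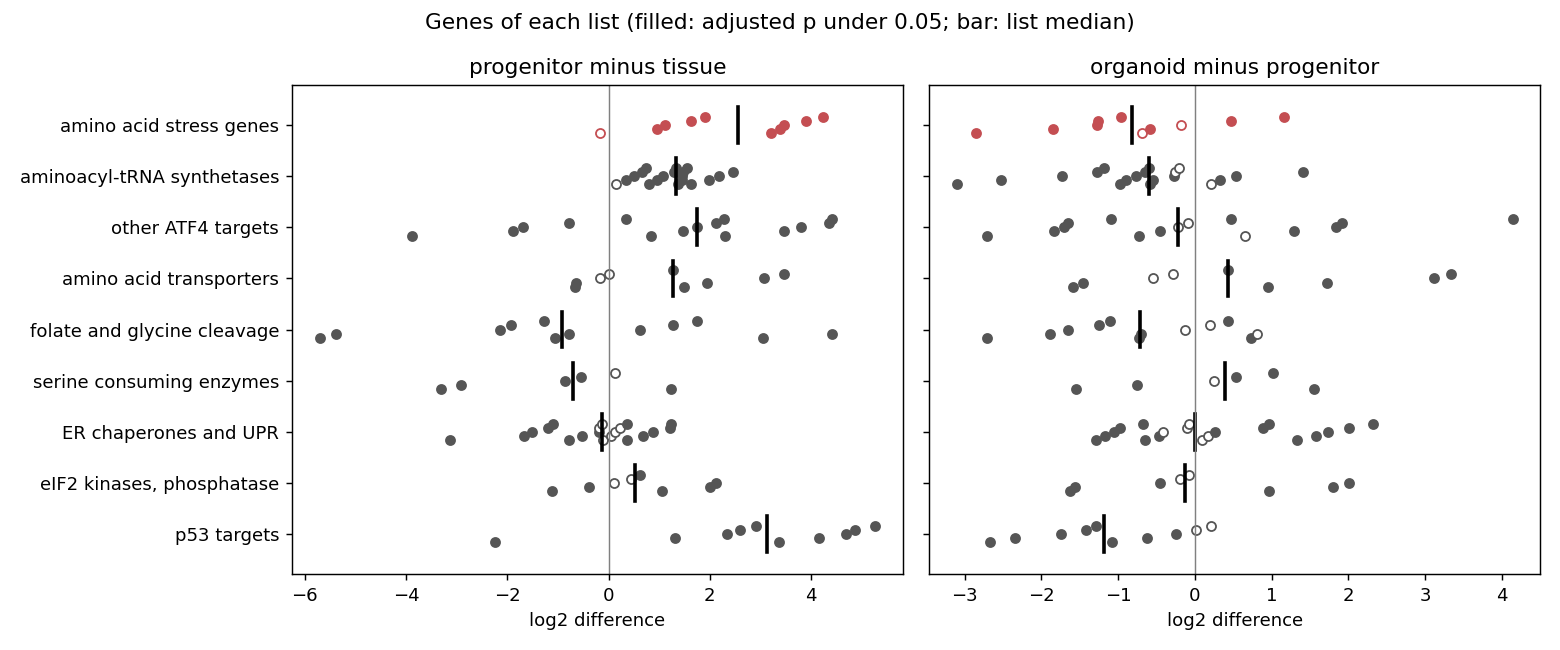
Log2 differences (horizontal axes) of the genes of each list for progenitor minus tissue (left) and organoid minus progenitor (right); each point is a gene, filled if it passed the adjusted threshold, and the bar is the list median. In the left panel 18 of 19 aminoacyl-tRNA synthetases lie filled right of 0, while unfolded protein response genes lie on both sides.

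The genes most like Trib3 and Phgdh over the 12 arrays were listed as a description, since 12 points from 3 stages share their stage. For Trib3 they were Itpripl2 (Pearson r = 0.967), Suv39h2 (0.966), Psat1 (0.962), Rnase4 (0.957) and E2f6 (0.956). For Phgdh they were Basp1 (0.996), Ywhah (0.994), Bop1 (0.994), Ahnak2 (0.993) and Ppp4r2 (0.993). One member, Psat1, was thus among the 5 genes most like Trib3.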

How the data were processed

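RNA of 12 samples was measured on 1 Affymetrix mouse array each. Per the labels' protocols, RNA was purified with RNeasy and labelled with a 3' IVT PLUS kit. MAS5 made the signals, per the submitters' processing notes, which name no version. The deposited table holds 1 log2 signal per probe set and array; unlogged, its values have a mean of 500 on every array after trimming 2% at each end. The table has 45101 probe sets, of which 64 are controls and were not tested. By the platform annotation, 34945 carry 1 gene symbol, 932 several and 9224 none, controls included; 34741 of the 34945 matched a current gene. Tests used probe sets of 1 symbol.

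The single-symbol probe set with the highest mean over 12 arrays stood for each of 18193 genes, and 13031 genes whose signal exceeded the median of both arrays in some group were tested. Before log2, 15.16 was added to each unlogged signal, which is the 25th percentile over the table. R 4.3.3 and limma 3.58.1 fitted 6 group means to all 12 arrays (6 residual degrees of freedom, median prior 5.66, mean-variance trend). Two-sided p-values were adjusted by Benjamini-Hochberg across these genes, with 0.05 as threshold. Stage differences average the medulla and cortex differences (4 arrays a side), and region differences have 2 arrays a side. Precision is limited by how many arrays there are. The same model was fitted to 24193 probe sets, and was tested on simulated data.

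The members, gene lists and tests were chosen with earlier results of these data known. All 10 members were named throughout, with up to 4 genes past the threshold by largest difference per list, and for Trib3 and Phgdh the 5 tested genes of highest Pearson r, unnamed gene models passed over. Sequences are RefSeq's, build GRCm38.p6. Alternatives were quantile normalization, 75th percentile scaling, 2 other offsets, 2 other filters, the mean of all probe sets, the compared groups alone, no trend, the replicate number as a block and each array left out. Deviations of same-numbered arrays from their group means correlated between -0.138 and 0.0570 over the pairs of groups, so the numbers were not taken to pair samples.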

Additional observations from a re-analysis of the deposited data

Results flagged for a closer look

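Chac1 differed between regions in its change with stage: the organoid minus progenitor difference was 1.74 ± 0.35 log2 units higher in medulla than in cortex cultures (adjusted p = 0.0216, limma). Chac1 fell by 1.98 ± 0.25 in medulla organoids against medulla progenitors and fell by 3.72 ± 0.25 in cortex organoids against cortex progenitors. Fibroblast marker signal was also higher in medulla than in cortex organoids, and its part was not tested. Chac1 has 1 probe set, and each group has 2 arrays. Its call did not hold without any 1 of the progenitor arrays or without organoid cortex replicate 1, with differences of 1.56 to 1.78.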

How the results depend on the processing

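The number of the 10 genes past the threshold was 9 for progenitor minus tissue without any 1 array, 6 to 9 for organoid minus progenitor and 9 to 10 for organoid minus tissue. For medulla minus cortex in organoids it was 4, and 0 in a fit of those groups alone, 2 without a mean-variance trend and 1 to 5 without 1 array. For the difference of differences between organoid and progenitor it was 1, and 0 to 3 without 1 array. The tissue and progenitor region comparisons, and the progenitor minus tissue difference of differences, had 0 under every array left out. With the replicate number as a block the 8 counts were 9, 8, 9, 0, 0, 4, 0 and 1, the same as without. Directions reversed only with the mean of all probe sets: Ddit3 progenitor minus tissue became 0.57 and Sesn2 medulla minus cortex in organoids 0.0254. Among list genes, so did Qars (-0.40 organoid minus progenitor, -0.21 organoid minus tissue), Impact (0.61 and 0.80), Eif2ak3 (0.58 organoid minus progenitor), Sptlc2 (-0.20 progenitor minus tissue, -0.0220 organoid minus tissue), Ptdss2 (0.0943 organoid minus progenitor, 0.23 medulla minus cortex in organoids) and Cbs (0.18 organoid minus tissue). The cause was not tested. Over the 10 genes and 8 comparisons, 780 of 800 values under settings other than leaving out an array kept their call, 13 lost it and 5 gained it and 2 reversed; over arrays left out, 925 of 960 kept it, 25 lost it, 10 gained it and 0 reversed. For list genes 1182 of 1229 and 1435 of 1476 kept it. Among member values that did not pass in the fit reported, 6 changed sign under other settings and 24 with an array left out. Dim genes, Trib3 in tissue above all, are limited by signal over background, which the deposited values do not separate.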
